A study of Mus musculus with 62 samples.

Results

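Poly(A) RNA of the ventral hippocampus (vHPC) was compared with that of the ventral striatum (VS) in mice that had received saline and no ethanol. Every vHPC and VS library of a saline mouse entered, which gave 6 vHPC and 6 VS libraries, 12 of the 62 libraries of the series. The mice were male C57BL/6J aged 8 to 10 weeks, and the labels name no engineered allele. Acute mice received 1 intraperitoneal saline injection and chronic mice received 10, 1 each day, and tissue was taken 4 h after the last. Libraries of mice given ethanol, 2 g/kg in each injection on the same schedule, were used for a separate comparison further below. Each region had 3 acute and 3 chronic libraries, from 7 mice of which 5 gave both regions, if the same number in the library names means the same mouse. Cores were punched from frozen brain slices, so a library held all cells of the core, and fewer cells of a type could not be told apart from less RNA per cell. The vHPC and VS libraries shared a directional kit, a sequencing platform and a batch, batch 2 of the series.

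The genes described are 845 members of receptor, channel, peptide and transcription factor families, 751 of which had counts enough for the test. The lists held 237 receptor genes, 189 channel genes, 94 genes of neuropeptides and secreted ligands and 325 transcription factor genes. Levels are CPM, counts scaled to a common library size by TMM. Fold changes are log2 of vHPC over VS, so that a positive value is higher in vHPC. The test was the quasi-likelihood F test of edgeR with the paradigm (acute or chronic) as a covariate and a false discovery rate (FDR) below 0.1. Genes that lead a class or list below were named only if the libraries of the regions did not overlap. For these genes the lack of overlap was a condition of being named and not a finding.

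The hippocampus is a cortical structure of pallial origin, in which glutamatergic pyramidal and dentate granule neurons form a chain of excitatory connections and a minority of GABAergic interneurons controls them. The striatum is subpallial, and most of its neurons are GABAergic projection neurons, which carry dopamine receptors and make opioid peptides and tachykinins beside GABA, with sparse cholinergic interneurons among them. The ventral part of the striatum, which includes the nucleus accumbens, receives excitatory fibres from the ventral hippocampus and dopamine from the midbrain.

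Depth ran from 10142093 to 16443179 counts on genes per library. Marker genes separated the libraries by their labelled region. All 12 striatal projection neuron markers were at least 2-fold higher in VS, where their summed level ran from 4677 to 7750.1 CPM against 452 to 867 CPM in vHPC. Of 9 markers of hippocampal and other pallial excitatory neurons, 7 were at least 2-fold higher in vHPC, and all 5 dentate granule neuron markers were. The pallial list summed to 1551 to 2549.6 CPM in vHPC and to 68.5 to 808 CPM in VS, where 5 libraries lay at 334 CPM or above and the chronic library of mouse 5 at the lowest value. That library was also the highest of the VS libraries in cholinergic neuron markers, at 64.2 CPM. The acute vHPC library of mouse 2 stood apart in thalamic and habenular markers (673 CPM) and choroid plexus markers (2454 CPM), the chronic VS library of mouse 6 in choroid plexus markers (2955 CPM), and the acute vHPC library of mouse 6 was the lowest of its region in dentate markers (78.0 CPM). Meningeal fibroblast markers were higher in vHPC for 6 of 6 genes, with sums of 24.4 to 88.1 CPM against 14.3 to 23.9 CPM, and astrocyte markers for 4 of 6 (3377 to 3875 CPM against 1956 to 2319.6 CPM). None of the choroid plexus, ependymal or myelin markers passed edgeR's test.

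**Figure D1:**
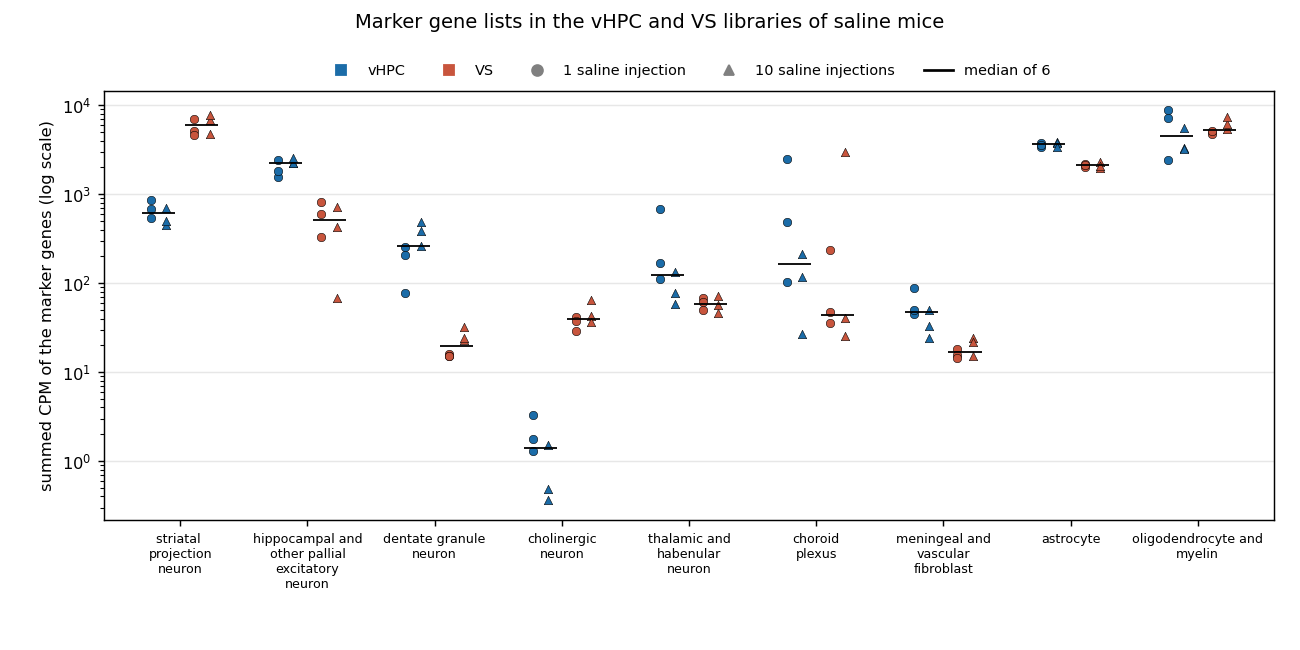
Summed CPM of 9 marker gene lists (log axis) in each of the 6 vHPC and 6 VS libraries of saline mice, with circles for acute mice, triangles for chronic mice and a line at the median of 6. The striatal and pallial lists separate the regions in every library, while choroid plexus RNA reached 2454 CPM in 1 vHPC library and 2955 CPM in 1 VS library.

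Across all 20978 genes tested, 12.0% were at least 2-fold apart at an FDR below 0.1, 5.35% higher in vHPC and 6.61% higher in VS. Among the 751 members tested, 113 were at least 2-fold higher in vHPC and 129 in VS, 32.2% in all. The members were chosen with earlier results of these data known, so a share above that of all genes may in part reflect that choice. The share was 39.8% for receptors, 27.8% for channels, 34.7% for peptides and 28.4% for transcription factors. The median log2 fold change was 0.03 over the members and -0.04 over all genes. TMM scaling itself sets the median over all genes near 0. Without a size criterion, 39.1% of all genes passed edgeR's test, 18.9% towards vHPC and 20.2% towards VS. Of the members, 226 passed towards vHPC and 218 towards VS. Against a fold change of 2 as the null (glmTreat of edgeR), 159 members were called, and 4.79% of all genes. The 6 libraries of 1 region all lay above the 6 of the other for 255 members tested, 34.0%, against 17.6% of all genes. The vHPC libraries were the higher ones for 130 members and 9.59% of all genes, and the VS libraries for 125 members and 8.03%. Of the members at least 2-fold higher in vHPC, 112 of 113 had the same sign in acute and in chronic mice fitted alone, and 128 of 129 of those higher in VS did. Both fits drew on the libraries that had chosen these members, so the agreement in sign was largely set by that choice.

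Receptors for monoamines and acetylcholine were led by the dopamine receptors, of which 3 of 4 tested were higher in VS and 1 in vHPC. *Drd1* (ENSMUSG00000021478; chromosome 13, 54205202 to 54209724), the Gs-coupled receptor of the direct-pathway projection neurons, ran from 2.88 to 14.1 CPM (median 7.83) in vHPC and 129 to 238 CPM (median 175) in VS (log2 fold change -4.46, standard error 0.34, edgeR FDR 2.25e-07). The groups were far apart, with the lowest VS library above the highest vHPC library by more than the whole vHPC range. *Drd2*, the Gi-coupled receptor of indirect-pathway neurons, ran from 2.92 to 11.3 CPM (median 7.09) in vHPC and 93.7 to 189 CPM (median 139) in VS. *Drd3*, typical of the ventral striatum, had 0 to 0.412 CPM (median 0.225) in vHPC and 1.36 to 5.86 CPM (median 4.15) in VS. Neither overlapped between the regions, and *Drd3* was the lower in level, with at most 67 counts in any library. *Drd5*, the other Gs-coupled dopamine receptor, went the opposite way, with 8.58 to 19.4 CPM (median 10.9) in vHPC and 1.83 to 4.58 CPM (median 2.49) in VS (log2 fold change 2.08, standard error 0.20, edgeR FDR 2.15e-06). Per kilobase of exon, *Drd5* made up 46.1% ± 18.0% in vHPC and 0.91% ± 0.407% in VS of the summed dopamine receptor level (mean ± SD, n = 6 per region), and *Drd1* 23.5% ± 9.79% in vHPC and 46.1% ± 1.74% in VS.

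Among serotonin receptors, 3 of 12 tested were at least 2-fold higher in vHPC and 4 in VS (median log2 fold change -0.09). *Htr1d* and *Htr1b*, Gi-coupled receptors known from axon terminals, were higher in VS. *Htr1d* had 0 to 1.10 CPM (median 0.616) in vHPC and 7.49 to 11.6 CPM (median 10.0) in VS. *Htr1b* had 2.92 to 8.18 CPM (median 6.22) in vHPC and 38.9 to 63.7 CPM (median 51.6) in VS. Both showed no overlap between regions. *Htr2c*, a Gq-coupled receptor, gave 12.8 to 44.0 CPM (median 33.8) in vHPC and 52.0 to 137 CPM (median 111) in VS. *Htr3a*, the serotonin-gated cation channel of a class of interneurons, gave 3.84 to 17.5 CPM (median 9.32) in vHPC and 0.995 to 3.59 CPM (median 2.33) in VS (log2 fold change 2.17, standard error 0.36, edgeR FDR 3.20e-04), and *Htr5b* was higher in vHPC too (log2 fold change 2.46) at levels below 5 CPM. *Htr1a* was higher in vHPC by less than 2-fold, with medians of 23.0 and 12.0 CPM. The 2 regions thus differed in which serotonin receptors were abundant: per kilobase, *Htr1b* took 4.42% ± 1.47% in vHPC and 24.8% ± 3.74% in VS of the list, and *Htr3a* 15.7% ± 5.32% in vHPC and 2.49% ± 1.19% in VS.

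The largest receptor difference towards vHPC was in *Adra1d* (ENSMUSG00000027335; chromosome 2, 131387770 to 131404203), a Gq-coupled receptor for noradrenaline, with 56.6 to 99.8 CPM (median 66.7) in vHPC and 1.34 to 3.02 CPM (median 1.58) in VS (log2 fold change 5.29, standard error 0.20, edgeR FDR 7.03e-10). All 6 vHPC libraries lay at 56.6 CPM or above and all 6 VS libraries at 3.02 CPM or below. *Adra2c*, a Gi-coupled receptor, was the adrenergic receptor at least 2-fold higher in VS (15.1 to 25.5 CPM (median 19.2) in vHPC and 37.1 to 57.7 CPM (median 47.0) in VS), and the other 7 adrenergic receptors tested were not 2-fold apart. Per kilobase, *Adra1d* made up 68.3% ± 6.53% in vHPC and 3.57% ± 0.984% in VS of adrenergic receptor transcripts and *Adra2c* 10.4% ± 2.40% in vHPC and 50.3% ± 7.37% in VS. The muscarinic family showed the same kind of exchange. *Chrm3*, Gq-coupled, gave 51.7 to 81.6 CPM (median 60.6) in vHPC and 15.6 to 30.3 CPM (median 25.4) in VS. *Chrm4*, Gi-coupled and known from direct-pathway neurons, gave 5.92 to 11.9 CPM (median 6.81) in vHPC and 33.8 to 49.2 CPM (median 40.3) in VS. Neither overlapped, and *Chrm1* was higher in vHPC by less than 2-fold (log2 fold change 0.70). Of the nicotinic subunits, *Chrna7* was higher in vHPC (16.5 to 34.3 CPM (median 25.7) in vHPC and 6.96 to 10.8 CPM (median 10.1) in VS), where the chronic VS library of mouse 5 was the lowest, and *Chrna2* was called higher in VS at 1.14 CPM or less. *Hrh3* was the histamine receptor at least 2-fold apart (25.7 to 67.1 CPM (median 30.8) in vHPC and 74.2 to 149 CPM (median 133) in VS; log2 fold change -1.72).

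Purine and opioid receptors followed. *Adora1*, the Gi-coupled adenosine receptor of synaptic terminals, was higher in vHPC (302 to 389 CPM (median 341) in vHPC and 96.3 to 177 CPM (median 150.1) in VS; log2 fold change 1.24, standard error 0.13, edgeR FDR 3.75e-06). *Adora2a*, the Gs-coupled adenosine receptor that indirect-pathway neurons carry beside *Drd2*, gave 1.80 to 16.3 CPM (median 8.51) in vHPC and 127 to 243 CPM (median 176) in VS (log2 fold change -4.39, standard error 0.38, edgeR FDR 9.32e-07). The lowest VS library of *Adora2a* was thus well above the highest vHPC library, and *Adora1* separated the regions in the other direction. *Oprk1*, the dynorphin receptor, ran from 0.36 to 7.01 CPM (median 1.66) in vHPC and 20.5 to 46.3 CPM (median 31.2) in VS. *Oprm1*, the receptor for enkephalin and endorphin, ran from 0.54 to 1.62 CPM (median 1.46) in vHPC and 4.15 to 10.4 CPM (median 6.42) in VS. Every VS library lay above every vHPC library in both genes. *Oprd1* was higher in VS by less than 2-fold (log2 fold change -0.87), and *Oprl1*, the nociceptin receptor, had medians of 38.1 and 33.9 CPM and did not pass edgeR's test. The cannabinoid receptor gene *Cnr1* was higher in vHPC by less than 2-fold (0.63), with overlapping ranges of 153 to 252 CPM (median 180.3) in vHPC and 92.2 to 171 CPM (median 122) in VS.

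The receptors for other neuropeptides were the longest list, and 9 of 46 tested were at least 2-fold higher in vHPC and 17 in VS (median -0.28). *Npy2r*, the presynaptic neuropeptide Y receptor, led towards vHPC with 50.6 to 87.3 CPM (median 67.4) in vHPC and 5.32 to 28.9 CPM (median 9.91) in VS (log2 fold change 2.44, standard error 0.33, edgeR FDR 5.29e-05). The VS maximum came from the chronic library of mouse 5, and the other 5 VS libraries did not exceed 13.7 CPM. *Sstr3*, the somatostatin receptor of neuronal primary cilia, was higher in vHPC as well (32.0 to 56.2 CPM (median 44.4) in vHPC and 3.84 to 18.5 CPM (median 8.31) in VS), as were *Vipr2* (2.65), *Sstr4* (1.60) and *Grpr*, the receptor of gastrin-releasing peptide (1.40). Towards VS, *Tacr1*, the substance P receptor, gave 0.9 to 3.07 CPM (median 1.90) in vHPC and 17.6 to 25.8 CPM (median 20.1) in VS (log2 fold change -3.41, standard error 0.19, edgeR FDR 1.79e-08). The groups did not overlap. *Calcr*, the calcitonin and amylin receptor, had at most 2 counts in each vHPC library and 0.166 to 8.53 CPM in VS. Taking 3 counts in each vHPC library as the floor, its mean was at least 13.9-fold higher in VS. *Mc3r* (-4.09), *Npsr1* (-3.06), *Avpr1a* (-2.67), *Galr1* (-2.22), *Trhr* (-2.21) and *Glp1r* (-1.59) were further peptide receptors at least 2-fold higher in VS.

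Glutamate receptors were next. Of the NMDA receptor subunits, 2 of 7 tested were at least 2-fold higher in vHPC and 0 in VS. *Grin2a* was higher in vHPC (394 to 604 CPM (median 450.3) in vHPC and 73.9 to 127 CPM (median 106) in VS; log2 fold change 2.16, standard error 0.14, edgeR FDR 4.75e-08). So was *Grin2b* (616 to 792 CPM (median 691) in vHPC and 227 to 333 CPM (median 282) in VS). The obligatory subunit *Grin1* differed by less than 2-fold (log2 fold change 0.30). The 6 libraries of each region did not overlap for *Grin2a* and *Grin2b* and overlapped for *Grin1*. Per kilobase, *Grin2a* made up 20.7% ± 1.85% in vHPC and 7.62% ± 1.31% in VS of NMDA subunit transcripts. The AMPA subunit *Gria1*, the receptor gene of highest level per kilobase, ran from 786 to 1269 CPM (median 1052) in vHPC and 478 to 526.1 CPM (median 506) in VS (log2 fold change 1.01), whereas *Gria2* had medians of 755 and 708 CPM and did not pass the test. Kainate subunits split: *Grik4* gave 69.6 to 126 CPM (median 87.9) in vHPC and 11.1 to 20.9 CPM (median 17.6) in VS. *Grik3* gave 44.9 to 68.5 CPM (median 56.2) in vHPC and 124 to 177 CPM (median 139.8) in VS. *Grm2*, a presynaptic Gi-coupled receptor, was higher in vHPC (22.01 to 80.9 CPM (median 42.6) in vHPC and 2.99 to 11.9 CPM (median 5.67) in VS; log2 fold change 2.71, standard error 0.31, edgeR FDR 1.19e-05). *Grm4*, of the same signalling class, was higher in VS (9.37 to 40.1 CPM (median 15.8) in vHPC and 48.7 to 67.4 CPM (median 55.5) in VS). Its highest vHPC value was in the acute library of mouse 2. *Grm5*, the Gq-coupled receptor abundant in both regions, was higher in VS by less than 2-fold (log2 fold change -0.37).

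Inhibitory receptors leaned towards VS by count, as 1 of 16 tested were at least 2-fold higher in vHPC and 5 in VS among GABA-A subunits. *Gabra5*, a subunit of extrasynaptic receptors known from the hippocampus, was the exception (141 to 211 CPM (median 195) in vHPC and 35.2 to 51.0 CPM (median 42.3) in VS; log2 fold change 2.09, standard error 0.11, edgeR FDR 1.01e-08). *Gabrd*, the other extrasynaptic subunit, ran from 18.5 to 44.6 CPM (median 24) in vHPC and 55.8 to 104 CPM (median 81.6) in VS. *Gabrg1* had 10.9 to 17.9 CPM (median 13.9) in vHPC and 20.5 to 74.2 CPM (median 39.2) in VS. *Gabrg3* had 15.2 to 20.0 CPM (median 18.1) in vHPC and 37.8 to 54.7 CPM (median 46.0) in VS. None of these 4 overlapped. *Gabrb2*, a subunit of synaptic receptors, had a log2 fold change of 0.12 and did not pass the test. *Gabra5* took 25.6% ± 3.41% in vHPC and 6.68% ± 0.884% in VS of GABA-A transcripts per kilobase and *Gabrd* 3.86% ± 1.49% in vHPC and 13.2% ± 4.04% in VS. The GABA-B receptor is an obligate dimer, and its genes parted: *Gabbr2* ran from 369 to 444 CPM (median 385) in vHPC and 120.4 to 167 CPM (median 139.6) in VS (log2 fold change 1.48, standard error 0.09, edgeR FDR 2.89e-08), while *Gabbr1* was slightly higher in VS (log2 fold change -0.16). *Glra2*, a glycine receptor subunit, was higher in VS (7.07 to 11.2 CPM (median 7.86) in vHPC and 12.5 to 26.7 CPM (median 25.4) in VS).

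Of the orphan G protein-coupled receptors, 4 of 35 tested were at least 2-fold higher in vHPC and 9 in VS. *Gpr6* (ENSMUSG00000046922; chromosome 10, 40945973 to 40948281), of indirect-pathway neurons, gave 0.18 to 3.98 CPM (median 1.33) in vHPC and 36.8 to 71.0 CPM (median 47.2) in VS (log2 fold change -4.91, standard error 0.36, edgeR FDR 1.52e-07). *Gpr52* gave 0.9 to 3.02 CPM (median 1.92) in vHPC and 33.0 to 44.8 CPM (median 41.0) in VS. In both genes the lowest VS library was well above the highest vHPC library. *Gpr161* (1.95) and *Gpr22* (1.86) were among those higher in vHPC. Receptor tyrosine kinases leaned the other way, with 6 of 28 tested at least 2-fold higher in vHPC and 2 in VS. The ephrin receptor genes *Epha6* (67.2 to 104 CPM (median 88.9) in vHPC and 15.5 to 26.5 CPM (median 19.9) in VS), *Epha3* (2.00), *Ephb2* (1.89) and *Epha4* (1.54) were among the former, with *Fgfr1* (1.31).

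*Ntrk2*, the receptor of brain-derived neurotrophic factor, ran from 504 to 635 CPM (median 546) in vHPC and 581 to 628 CPM (median 613) in VS and did not pass edgeR's test.

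**Figure D2:**
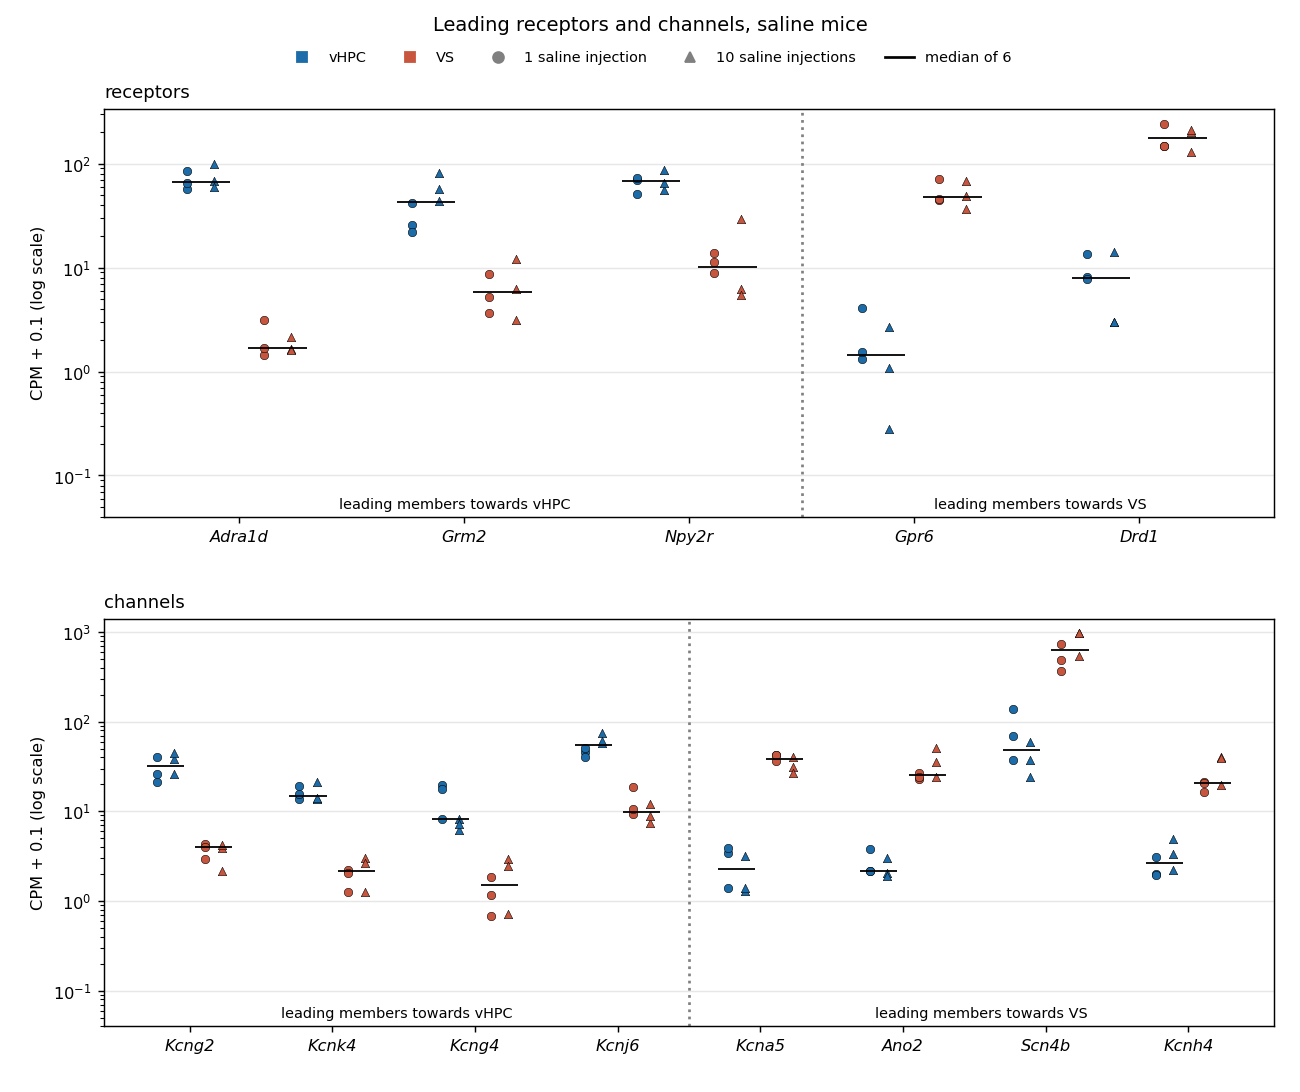
CPM + 0.1 (log axis) of leading receptors (3 towards vHPC and 2 towards VS) and channels (4 towards each region), among those with the largest differences, in the 6 vHPC and 6 VS libraries of saline mice (circles acute, triangles chronic, line at the median of 6). No gene overlaps between regions, as the rule required, and the vHPC levels of *Scn4b* spread from 23.9 to 139.8 CPM.

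Ion channels differed in fewer members than receptors did by count, 22 higher in vHPC and 23 in VS of 162 tested. Among voltage-gated potassium channels, *Kcnc2*, which serves fast repolarisation, was higher in vHPC (86.5 to 188 CPM (median 117) in vHPC and 17.6 to 56.3 CPM (median 40.9) in VS). *Kcna5*, a delayed rectifier, was higher in VS (1.19 to 3.77 CPM (median 2.18) in vHPC and 26.9 to 42.3 CPM (median 38.3) in VS; log2 fold change -3.98, standard error 0.24, edgeR FDR 2.61e-08), as was *Kcna4* (-1.07). *Kcnc2* and *Kcna5* did not overlap between regions. The silent subunits, which form no channel alone and modify other potassium channels, gave the leading channel of vHPC: *Kcng2* (ENSMUSG00000059852; chromosome 18, 80337761 to 80407469) ran from 21.1 to 44.4 CPM (median 31.8) in vHPC and 2.04 to 4.26 CPM (median 3.87) in VS (log2 fold change 3.20, standard error 0.22, edgeR FDR 9.88e-08). *Kcng4* (6.13 to 19.4 CPM (median 8.09) in vHPC and 0.576 to 2.84 CPM (median 1.42) in VS) and *Kcns3* (1.77) were also at least 2-fold higher in vHPC, and no silent subunit was in VS. Of the accessory subunits, *Kcnab2* ran from 699 to 997 CPM (median 855) in vHPC and 234 to 309 CPM (median 288) in VS. *Kcnab1*, its relative, was higher in VS (log2 fold change -1.22) with *Dpp10* (23.4 to 61.1 CPM (median 40.3) in vHPC and 94.9 to 124 CPM (median 112) in VS).

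No member of the KCNQ and EAG list was at least 2-fold higher in vHPC, and 3 of 13 were in VS, led by *Kcnh4* (1.88 to 4.86 CPM (median 2.54) in vHPC and 16.3 to 40.4 CPM (median 20.8) in VS). Channels gated by intracellular ions split. The sodium-activated channel *Kcnt1* was higher in VS (29.0 to 47.1 CPM (median 34.6) in vHPC and 135 to 210.0 CPM (median 154) in VS; log2 fold change -2.15, standard error 0.14, edgeR FDR 4.89e-08). *Kcnt2*, its relative, was higher in vHPC (19.9 to 33.2 CPM (median 26.2) in vHPC and 8.65 to 16.0 CPM (median 12.8) in VS). The small-conductance channels did likewise, *Kcnn2* higher in vHPC (log2 fold change 1.01) and *Kcnn3* in VS (-1.11). Inward rectifiers gave another exchange. *Kcnj6* and *Kcnj3*, subunits of the channels that Gi-coupled receptors open, were higher in vHPC, with 40.1 to 74.9 CPM (median 54.1) in vHPC and 7.25 to 18.4 CPM (median 9.85) in VS for *Kcnj6* and a log2 fold change of 1.54 for *Kcnj3*. *Kcnj2* and *Kcnj4*, the strong rectifiers that hold striatal neurons at a negative resting potential, were higher in VS. *Kcnj2* had 3.90 to 14.5 CPM (median 9.58) in vHPC and 23.3 to 58.0 CPM (median 34.3) in VS. *Kcnj4* had 37.7 to 80.9 CPM (median 48.3) in vHPC and 89.4 to 195 CPM (median 163) in VS. The ranges of these 4 genes did not overlap. *Kcnk4*, a mechanically gated leak channel, gave 13.7 to 21.3 CPM (median 14.8) in vHPC and 1.15 to 2.91 CPM (median 2.04) in VS (log2 fold change 3.01, standard error 0.22, edgeR FDR 1.51e-07). Its exons overlap those of *Catsperz* on the same strand, whose mean level was 0.293 of that of *Kcnk4*. The read pairs counted for both were not counted separately. *Kcnk2*, of the same subfamily, was higher in VS (-1.24).

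Of the sodium channel genes, *Scn4b*, a beta subunit that supports resurgent current, ran from 23.9 to 139.8 CPM (median 48.4) in vHPC and 365 to 974 CPM (median 635) in VS (log2 fold change -3.51, standard error 0.41, edgeR FDR 1.35e-05). The highest vHPC library lay far below the lowest VS library. Per kilobase, *Scn4b* made up 3.04% ± 2.09% in vHPC and 35.3% ± 9.58% in VS of sodium channel transcripts. The pore-forming genes *Scn1a*, *Scn2a*, *Scn3a* and *Scn8a*, stayed within 2-fold (log2 fold changes 0.33, 0.26, -0.46 and 0.91), and *Scn9a*, lower in level, was higher in VS (-2.09). Of the calcium channel genes, 10 of 17 passed edgeR's test towards vHPC, 2 of them past 2-fold: *Cacna1a* (193 to 242 CPM (median 209) in vHPC and 89.5 to 114 CPM (median 99.9) in VS) and *Cacna1c* (1.06). The auxiliary subunit *Cacna2d2* was higher in VS (18.2 to 43.0 CPM (median 30.0) in vHPC and 94.3 to 197 CPM (median 112) in VS; log2 fold change -2.06, standard error 0.22, edgeR FDR 5.64e-06).

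The TARP subunits, which traffic AMPA receptors, parted. *Cacng8* was higher in vHPC (111 to 206 CPM (median 167) in vHPC and 49.8 to 67.1 CPM (median 55.2) in VS). *Cacng4* was higher in VS (25.03 to 39.2 CPM (median 30.1) in vHPC and 72.5 to 119.8 CPM (median 94.5) in VS), and neither overlapped. The microRNA gene *Mir935* lies on the same strand within exons of *Cacng8*. *Hcn3* was higher in VS by less than 2-fold (log2 fold change -0.77), and no HCN or cyclic nucleotide-gated channel was 2-fold apart. Among TRP channels *Trpc5* (17.8 to 29.2 CPM (median 25.2) in vHPC and 2.99 to 16.3 CPM (median 6.19) in VS), *Trpc6* (1.28) and *Trpc4* (1.23) were higher in vHPC and *Trpc7* in VS (-1.56). *Ano2*, a calcium-activated chloride channel, led the chloride and acid-sensing list towards VS (1.78 to 3.75 CPM (median 2.07) in vHPC and 22.9 to 51.2 CPM (median 25.6) in VS; log2 fold change -3.62, standard error 0.24, edgeR FDR 5.51e-08). The acid-sensing genes parted. *Asic4* was higher in VS (9.88 to 13.6 CPM (median 11.2) in vHPC and 50.4 to 79.8 CPM (median 64.9) in VS). *Asic1* was too (21.5 to 31.4 CPM (median 25.9) in vHPC and 77.6 to 95.0 CPM (median 92.8) in VS). *Asic2* was higher in vHPC by slightly less than 2-fold (49.4 to 72.7 CPM (median 63.2) in vHPC and 22.5 to 37.1 CPM (median 34.2) in VS).

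Peptide precursors of VS were the textbook transmitters of striatal projection neurons. *Tac1* (ENSMUSG00000061762; chromosome 6, 7554879 to 7565834), the precursor of substance P, ran from 3.08 to 12.8 CPM (median 6.40) in vHPC and 115 to 179 CPM (median 142) in VS (log2 fold change -4.43, standard error 0.21, edgeR FDR 3.26e-09). *Penk*, of enkephalin, ran from 24.8 to 75.1 CPM (median 46.4) in vHPC and 735 to 1075 CPM (median 881) in VS (log2 fold change -4.23, standard error 0.26, edgeR FDR 3.87e-08). *Pdyn*, of dynorphin, had 3.75 to 18.1 CPM (median 12.95) in vHPC and 62.7 to 177 CPM (median 146) in VS (log2 fold change -3.40, standard error 0.31, edgeR FDR 1.15e-06). In all 3 genes the lowest VS library was more than 3 times the highest vHPC library. *Penk* was also among the 3 genes of highest level per kilobase in its class, beside *Cpe* and *Chgb*. *Cartpt*, of the peptide CART, gave 0.649 to 2.02 CPM (median 1.27) in vHPC and 3.66 to 35.9 CPM (median 29.0) in VS (log2 fold change -4.03, standard error 0.46, edgeR FDR 1.08e-05). The chronic VS libraries of mouse 3 and mouse 6 lay at 4.34 and 3.66 CPM and the other 4 at 24.9 CPM or above. *Nts*, of neurotensin, was higher in VS with overlapping ranges (0.487 to 4.50 CPM (median 1.198) in vHPC and 3.22 to 23.3 CPM (median 15.3) in VS; log2 fold change -3.12). Among interneuron peptides, *Sst* (-0.96) and *Npy* (-0.77) were higher in VS by less than 2-fold, and *Vip* did not pass the test (0.61). *Crh*, of corticotropin-releasing hormone, was at least 2-fold higher in VS, with overlapping ranges (0.18 to 1.73 CPM (median 1.58) in vHPC and 0.666 to 9.31 CPM (median 3.39) in VS; log2 fold change -1.87, standard error 0.73, edgeR FDR 0.0633).

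*Cck*, the precursor of cholecystokinin, was the interneuron peptide higher in vHPC, with 158 to 217 CPM (median 193) in vHPC and 10.5 to 96.5 CPM (median 50.8) in VS (log2 fold change 1.91, standard error 0.33, edgeR FDR 4.82e-04). It is made by pallial excitatory neurons too, and the VS library with the lowest *Cck* level, the chronic one of mouse 5, was also the one with the least pallial marker RNA. The part of pallial neurons in the *Cck* levels was not tested. *C1ql2* (ENSMUSG00000036907; chromosome 1, 120268312 to 120270903), a synaptic ligand of dentate mossy fibres and the leading member of its class towards vHPC, gave 12.4 to 111 CPM (median 49.0) in vHPC and 0.384 to 4.97 CPM (median 0.851) in VS (log2 fold change 5.23, standard error 0.45, edgeR FDR 8.09e-07). Its lowest vHPC value was in the acute library of mouse 6, in which the other dentate markers were low as well, and its highest VS value in the chronic library of mouse 5. The part of dentate tissue in the *C1ql2* levels was not tested. *C1ql3* ran from 59.4 to 135 CPM (median 69.0) in vHPC and 5.32 to 41.1 CPM (median 15.6) in VS. *Grp*, of gastrin-releasing peptide, gave 2.20 to 14.3 CPM (median 5.93) in vHPC and 0 to 0.995 CPM (median 0.325) in VS.

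Neurotrophins were a vHPC group among the secreted growth factors, of which 8 of 23 tested were at least 2-fold higher in vHPC and 3 in VS. *Bdnf* ran from 30.3 to 55.5 CPM (median 45.4) in vHPC and 1.85 to 25.1 CPM (median 6.51) in VS (log2 fold change 2.41, standard error 0.44, edgeR FDR 7.46e-04). Its highest VS value was in the acute library of mouse 6. *Ntf3* had 1.15 to 6.39 CPM (median 3.94) in vHPC and 0.124 to 0.472 CPM (median 0.185) in VS. *Bdnf* and *Ntf3* did not overlap between regions. *Gdnf* was higher in VS (0 to 0.412 CPM (median 0.166) in vHPC and 2.36 to 4.46 CPM (median 3.06) in VS). So were *Tgfa* (21.8 to 46.5 CPM (median 37.6) in vHPC and 71.7 to 137 CPM (median 95.4) in VS) and *Nrg1* (-1.22). The granins parted. *Chgb* was higher in vHPC (799 to 1188 CPM (median 895) in vHPC and 189.8 to 277 CPM (median 229) in VS; log2 fold change 2.02, standard error 0.12, edgeR FDR 1.85e-08). *Scg2* was higher in VS (149 to 179 CPM (median 161) in vHPC and 261 to 550.3 CPM (median 389.6) in VS). *Cpe*, the processing enzyme of highest level, had a log2 fold change of 0.57.

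**Figure D3:**
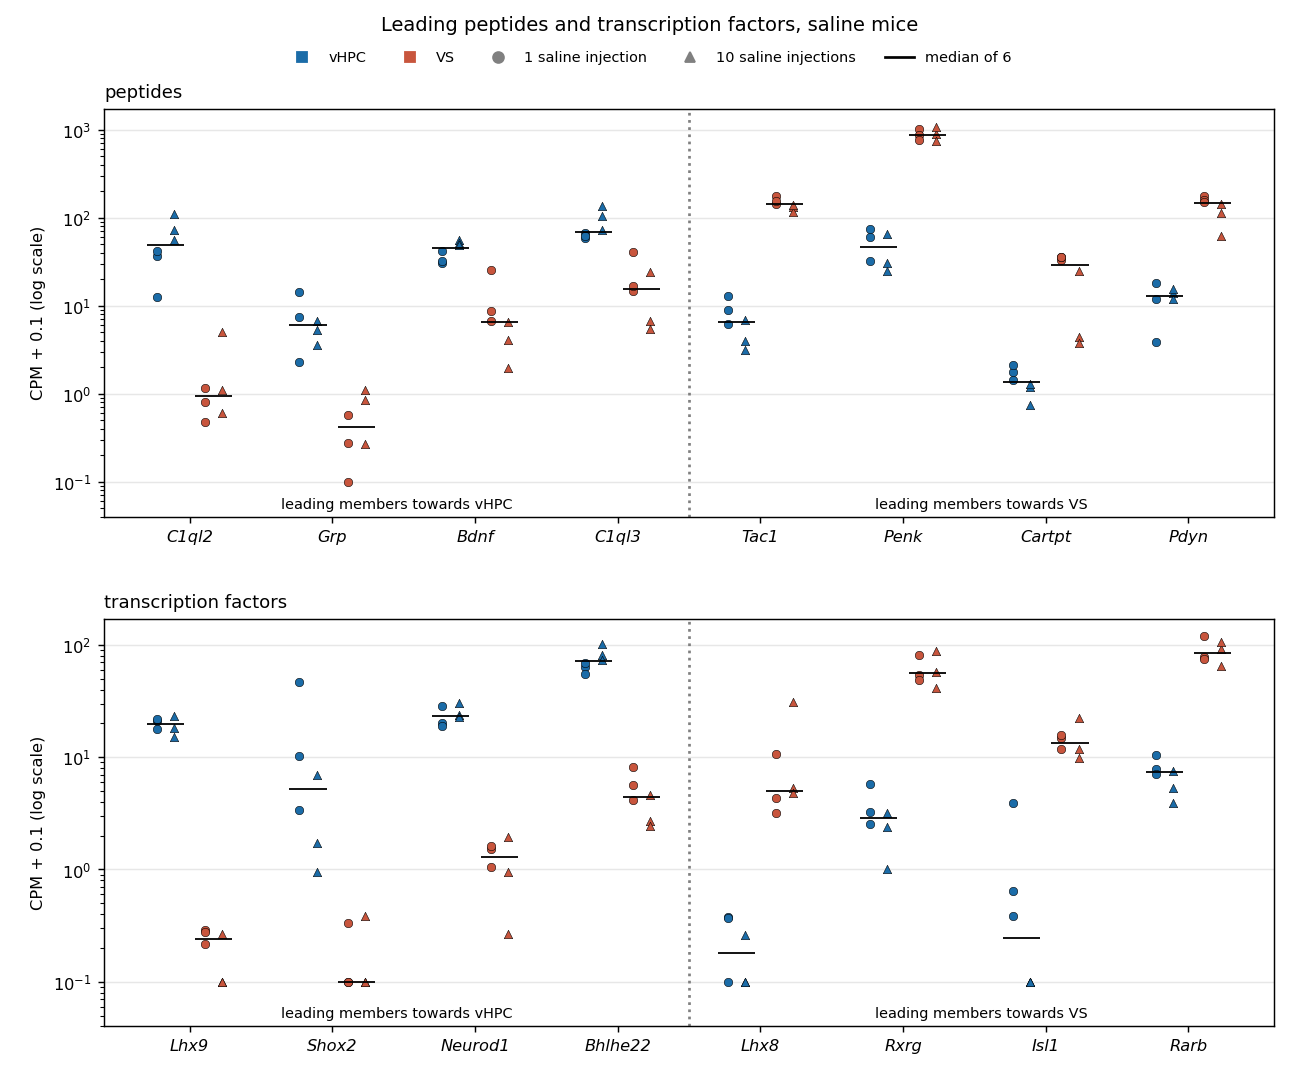
CPM + 0.1 (log axis) of the 4 peptide or ligand genes and 4 transcription factors with the largest difference towards each region, in the 6 vHPC and 6 VS libraries of saline mice (circles acute, triangles chronic, line at the median of 6). *Shox2* and *Isl1* show 1 vHPC library, the acute one of mouse 2, far above the rest, and *Lhx8* 1 VS library, the chronic one of mouse 5.

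Of the basic helix-loop-helix and PAS factors, 9 of 31 tested were at least 2-fold higher in vHPC and 3 in VS. The first group held NEUROD factors, which drive and keep the identity of pallial excitatory neurons. *Neurod1* (ENSMUSG00000034701; chromosome 2, 79282865 to 79287095) ran from 19.0 to 30.4 CPM (median 23.3) in vHPC and 0.166 to 1.86 CPM (median 1.19) in VS (log2 fold change 4.35, standard error 0.29, edgeR FDR 5.92e-08). *Neurod2* had 109.7 to 189 CPM (median 157) in vHPC and 3.69 to 32.5 CPM (median 18.5) in VS. *Neurod6* had 158 to 218 CPM (median 184) in vHPC and 4.26 to 35.3 CPM (median 12.0) in VS. The fourth, *Bhlhe22*, ran from 55.3 to 102 CPM (median 71.1) in vHPC and 2.33 to 8.02 CPM (median 4.29) in VS (log2 fold change 4.02, standard error 0.26, edgeR FDR 4.89e-08). None overlapped, and in *Neurod2* and *Neurod6* the chronic VS library of mouse 5 was the lowest of all 12. *Cerkl*, whose exons overlap *Neurod1* on the same strand, had a level of 0.295 of it. *Tcf4* was higher in vHPC as well (log2 fold change 1.60), and *Npas2*, a clock-related factor, in VS (10.2 to 22.7 CPM (median 17.3) in vHPC and 38.9 to 81.0 CPM (median 61.8) in VS).

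Every homeobox list held genes of both directions. Of the DLX and related homeobox factors, 1 of 9 tested were at least 2-fold higher in vHPC and 5 in VS, and the DLX genes among them are known to specify subpallial GABAergic neurons. *Six3* had 0 to 33.9 CPM (median 1.67) in vHPC and 43.4 to 70.9 CPM (median 48.1) in VS. *Dlx6* had 2.34 to 5.35 CPM (median 4.42) in vHPC and 23.1 to 37.1 CPM (median 30.2) in VS. The others were *Dlx5* (-2.43), *Dlx2* (-1.54) and *Dlx1* (-1.50), while *Six4* was the one higher in vHPC (1.08 to 3.57 CPM (median 1.40) in vHPC and 0.124 to 0.832 CPM (median 0.238) in VS; log2 fold change 2.19). The *Six3* maximum in vHPC came from the acute library of mouse 2, the next being 10.2 CPM. GABAergic neuron markers summed to 1273 to 2093 CPM in VS and 762 to 1001 CPM in vHPC, and their part in the DLX difference was not tested. The TALE factors, which form complexes with other homeobox proteins, gave *Meis2* (26.8 to 54.6 CPM (median 48.1) in vHPC and 316 to 471 CPM (median 359.9) in VS; log2 fold change -3.11). *Pbx3* was higher in VS as well (2.701 to 12.3 CPM (median 4.84) in vHPC and 43.1 to 71.3 CPM (median 48.1) in VS), as was *Pou3f4* of the POU family (-2.40).

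The LIM homeobox genes *Lhx8* and *Isl1*, which specify cholinergic and striatal neurons, were higher in VS. *Lhx8* (ENSMUSG00000096225; chromosome 3, 154011931 to 154036296) was at 0 in 3 of 6 vHPC libraries, with at most 4 counts in any, and ran from 3.07 to 30.8 CPM (median 4.93) in VS, where the chronic library of mouse 5 held the maximum (log2 fold change -6.04, standard error 0.78, edgeR FDR 3.41e-05). *Isl1* gave 0 to 3.84 CPM (median 0.144) in vHPC and 9.65 to 22.2 CPM (median 13.2) in VS. Cholinergic neuron markers moved with both: all 3 were at least 2-fold higher in VS, and their sum ran from 29.3 to 64.2 CPM there against 0.36 to 3.29 CPM in vHPC. Their part in these differences was not tested. *Nkx2-1*, a factor of the basal forebrain, was highest in the same library as *Lhx8* (0.135 to 1.10 CPM (median 0.423) in vHPC and 2.33 to 13.7 CPM (median 3.30) in VS). Leaving out that library and the acute vHPC library of mouse 6 gave 251 members at least 2-fold apart in place of 242. *Lhx9* (ENSMUSG00000019230; chromosome 1, 138752924 to 138776315) had the opposite pattern and the largest fitted fold change of the members: it ran from 15.0 to 23.2 CPM (median 19.5) in vHPC and had at most 2 counts in each VS library, which makes it at least 84.5-fold higher in vHPC with 3 counts per library as the floor (edgeR FDR 9.48e-10).

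*Shox2*, a factor of thalamic neurons, was next among homeobox genes of vHPC, with 0.852 to 46.7 CPM (median 5.11) in vHPC and 0 to 0.284 CPM (median 0) in VS (log2 fold change 6.59, standard error 1.01, edgeR FDR 1.60e-04). The acute library of mouse 2 held 46.7 CPM, and without it and the chronic VS library of mouse 6 the log2 fold change was 5.32. Thalamic and habenular markers moved with it, 4 of 6 at least 2-fold higher in vHPC, with sums of 58.6 to 673 CPM in vHPC and 45.9 to 71.5 CPM in VS and no marker at 0 in any library, and their part in the result was not tested. *Gata3* had no count in any VS library and up to 3.23 CPM in vHPC, at least 5.77-fold higher by the same floor, but 1 vHPC library was at 0 too. *Prox1*, the factor of dentate granule neurons, ran from 39.8 to 154 CPM (median 107) in vHPC and 12.97 to 22.3 CPM (median 16.3) in VS (log2 fold change 2.67). *Tbr1*, a factor of cortical excitatory neurons, did not pass the test, with 23.3 to 51.1 CPM (median 37.1) in vHPC and 6.82 to 54.3 CPM (median 39.1) in VS.

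Zinc finger factors were split, as 8 of 57 tested were at least 2-fold higher in vHPC and 10 in VS. *Prdm8*, a partner of *Bhlhe22*, was the leading one of vHPC (78.5 to 129 CPM (median 105) in vHPC and 2.42 to 11.1 CPM (median 6.10) in VS; log2 fold change 3.95, standard error 0.26, edgeR FDR 6.64e-08). *Zbtb18* had 391 to 548 CPM (median 458) in vHPC and 76.0 to 109 CPM (median 88.9) in VS. Others were *Zbtb16* (2.57) and *Zbtb20*, a hippocampal identity factor (1.33). *Klf5* led towards VS (1.92 to 7.28 CPM (median 4.10) in vHPC and 13.1 to 30.0 CPM (median 20.1) in VS), with *Zfp503* (-1.93), *Sp9* (-1.84) and *Ikzf3* (-3.58), the last at 1.497 CPM or less. The forkhead genes *Foxp2* (1.46 to 14.7 CPM (median 6.12) in vHPC and 48.1 to 73.3 CPM (median 55.0) in VS; log2 fold change -3.03, standard error 0.38, edgeR FDR 3.02e-05) and *Foxp1* (-1.24), with roles in striatal projection neurons, were higher in VS, and *Foxk1* in vHPC by less than 2-fold (0.80). *Ebf1* was higher in VS (-1.56), *Ets2* by less than 2-fold (-0.65), and the nuclear factor I genes *Nfib* (159 to 189.9 CPM (median 169.9) in vHPC and 29.3 to 66.5 CPM (median 41.6) in VS), *Nfix* (1.68) and *Nfia* (1.45) in vHPC. *Sox1*, a neural progenitor gene that striatal neurons keep, was higher in VS (11.5 to 17.4 CPM (median 15.0) in vHPC and 25.4 to 44.8 CPM (median 36.1) in VS). *Sox9*, an astrocyte factor, was higher in vHPC by less than 2-fold (23.7 to 37.8 CPM (median 31.9) in vHPC and 15.0 to 23.5 CPM (median 17.05) in VS). Astrocyte markers were also higher in vHPC, and their part in the *Sox9* difference was not tested.

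Of the nuclear receptors, 6 of 33 tested were at least 2-fold higher in vHPC and 3 in VS. *Rarb* (ENSMUSG00000017491; chromosome 14, 5650540 to 6038426), a retinoic acid receptor, ran from 3.78 to 10.4 CPM (median 7.21) in vHPC and 64.4 to 119.7 CPM (median 84.9) in VS (log2 fold change -3.69, standard error 0.20, edgeR FDR 1.29e-08). *Rxrg*, its dimer partner, had 0.9 to 5.63 CPM (median 2.75) in vHPC and 41.0 to 88.4 CPM (median 55.8) in VS (log2 fold change -4.41, standard error 0.30, edgeR FDR 7.19e-08). The groups were far apart in both. *Rarg* was higher in VS by less than 2-fold (-0.64), and *Rxra* and *Rxrb* did not pass the test (-0.14 and -0.09). *Rara* went the other way (1.15), as did the COUP factors *Nr2f2* (12.3 to 39.0 CPM (median 25.1) in vHPC and 3.38 to 8.24 CPM (median 4.91) in VS) and *Nr2f1* (2.01). The mineralocorticoid receptor gene *Nr3c2* was also higher in vHPC (143 to 243 CPM (median 185) in vHPC and 38.9 to 54.1 CPM (median 48.2) in VS; log2 fold change 1.94, standard error 0.12, edgeR FDR 3.01e-08). The glucocorticoid receptor gene *Nr3c1* had medians of 80.0 and 92.9 CPM and did not pass. Meningeal fibroblast markers moved with *Nr2f2* and with *Cebpd* (4.76 to 17.5 CPM (median 10.7) in vHPC and 1.83 to 2.88 CPM (median 2.06) in VS) in being higher in vHPC, and their part was not tested. *Thra*, *Jund* and *Nfe2l1*, the factors of highest level per kilobase, had log2 fold changes of 0.53, -0.02 and 0.14, and *Jund* did not pass the test. *Mafa* led the bZIP factors towards VS (0.943 to 2.61 CPM (median 1.41) in vHPC and 3.27 to 9.15 CPM (median 5.14) in VS).

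Promoter sequences bear on these members because *Rarb* is known to respond to its own ligand. The RefSeq promoter table matched 634 of the 845 members, and 4 of them are shown with the 250 bases before the annotated start. The bases are written in the direction of transcription. Coordinates are those of GRCm38.p6, an earlier build than the GRCm39 of the counts. In GRCm39, 3 of the 4 windows were found unchanged on the same strand of the same chromosome and that of *Rarb* was not. The opposite strand was not searched, so the missing match does not show that the *Rarb* sequence changed. They were chosen after the values were seen, 3 of VS genes and 1 of a vHPC gene, as leading members that hold a motif searched. Capitals mark the motifs: the retinoic acid response element, a direct repeat of GGTTCA and AGTTCA with 5 bases between them, the cyclic AMP response element TGACGTCA and the E-boxes CAGATG and CAGCTG, each searched on both strands. The windows are chr14:16575477-16575726 (*Rarb*), chr13:99900684-99900933 (*Cartpt*), chr10:41072291-41072540 (*Gpr6*) and chr3:82548086-82548335 (*Npy2r*), all on the minus strand.
Rarb: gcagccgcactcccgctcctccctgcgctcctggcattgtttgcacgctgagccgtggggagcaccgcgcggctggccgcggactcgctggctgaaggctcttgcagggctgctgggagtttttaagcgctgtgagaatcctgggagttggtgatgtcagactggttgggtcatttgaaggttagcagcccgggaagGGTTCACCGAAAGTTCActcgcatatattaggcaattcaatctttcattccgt
Cartpt: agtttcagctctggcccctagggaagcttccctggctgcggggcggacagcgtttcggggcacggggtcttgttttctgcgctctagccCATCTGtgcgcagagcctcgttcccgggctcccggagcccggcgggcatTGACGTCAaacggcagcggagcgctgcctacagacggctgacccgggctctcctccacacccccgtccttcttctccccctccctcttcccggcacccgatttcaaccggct
Gpr6: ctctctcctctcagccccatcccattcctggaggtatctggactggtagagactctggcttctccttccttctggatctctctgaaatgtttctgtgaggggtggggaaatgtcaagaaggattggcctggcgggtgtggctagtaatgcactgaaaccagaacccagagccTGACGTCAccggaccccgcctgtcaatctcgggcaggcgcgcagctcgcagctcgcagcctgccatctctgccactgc
Npy2r: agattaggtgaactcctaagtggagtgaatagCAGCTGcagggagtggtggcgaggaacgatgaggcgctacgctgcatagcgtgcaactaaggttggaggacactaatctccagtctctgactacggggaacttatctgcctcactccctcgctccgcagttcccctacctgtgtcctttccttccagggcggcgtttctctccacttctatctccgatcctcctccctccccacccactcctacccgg

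The element in *Rarb* lies 53 bases before the start, and its spelling was present in the windows of 2 of 27025 genes, 0.0074%. The half-sites searched were those of the *Rarb* element itself, and other spellings were not searched. The match and its low share therefore do not set *Rarb* apart. The cyclic AMP response element begins 112 bases before the start of *Cartpt* and 78 before that of *Gpr6*, and 1.77% of all genes hold it, against 3 of the 94 members higher in VS and 1 of the 87 higher in vHPC that had a window. The E-box CAGATG, a sequence that NEUROD-type factors bind, was in a window of 21.8% of members higher in vHPC and 7.45% of those higher in VS. It was in 14.1% of all members tested and 16.3% of all genes. CAGCTG was in 19.5%, 16%, 18.8% and 14.7% of the same sets. The shares are of genes that had a window, and a gene with several windows was counted if any of them held the motif. These shares are a description, since a match in 250 bases is not a bound site.

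**Figure D4:**
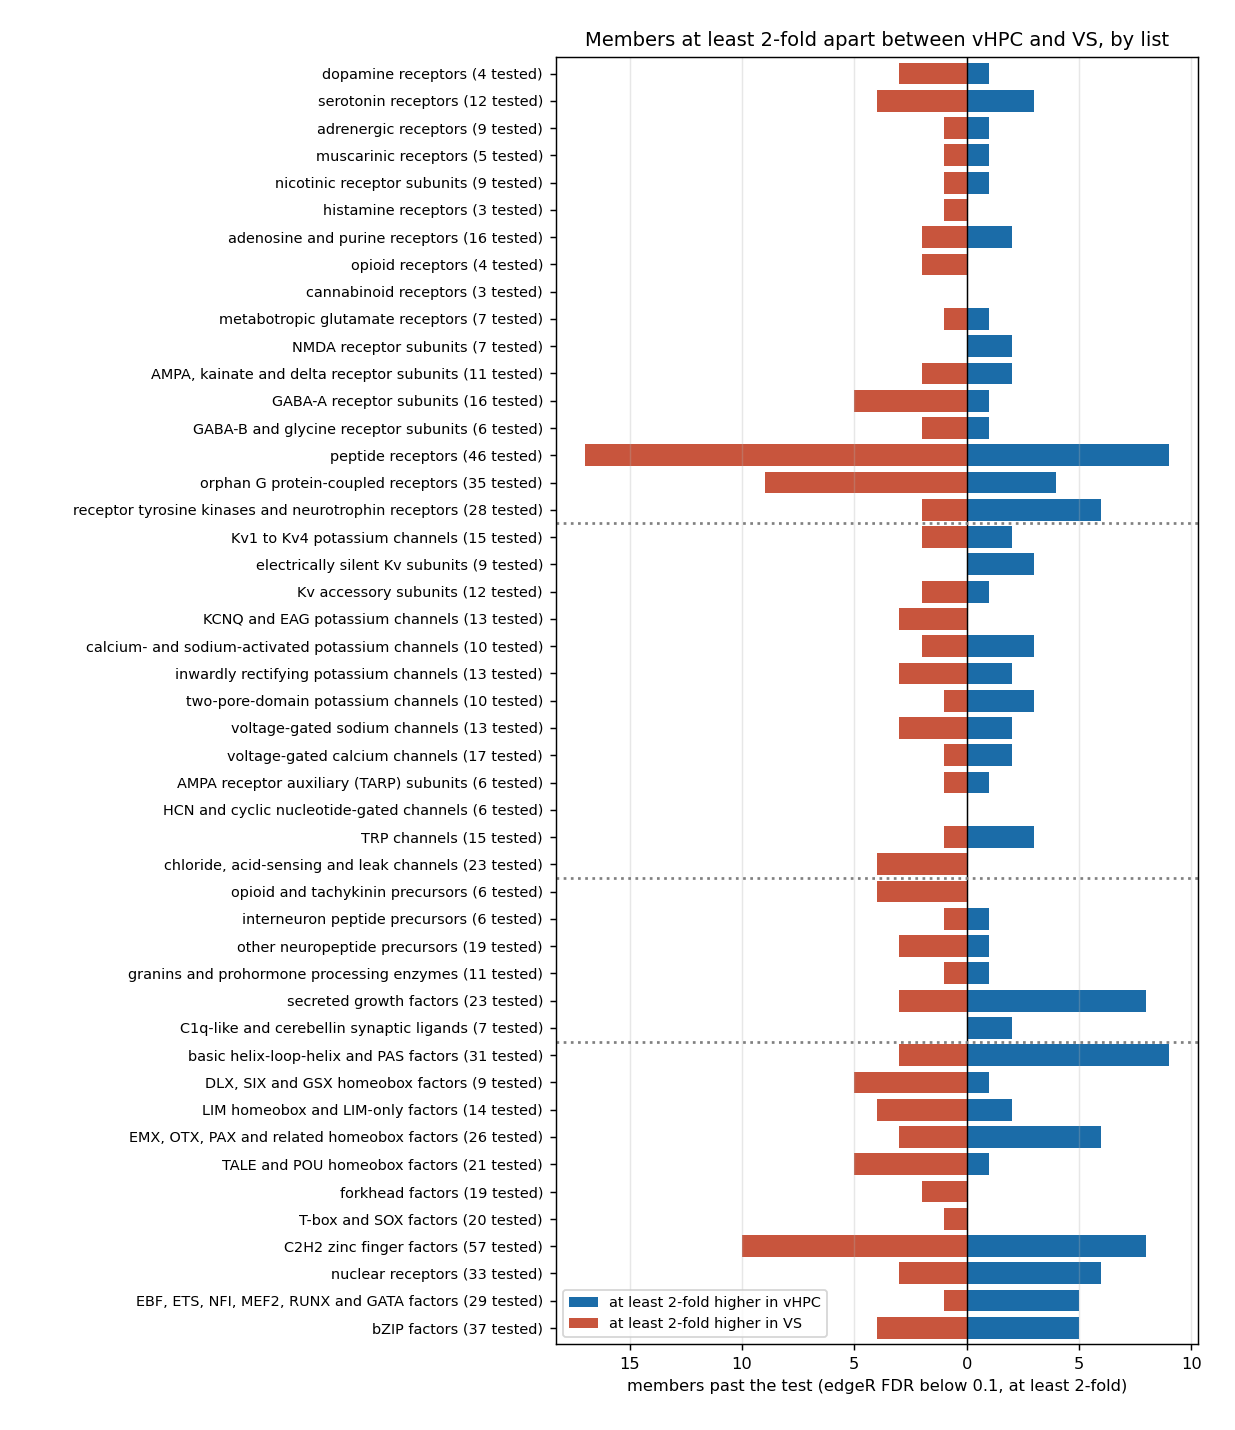
Number of members of each receptor, channel, peptide and transcription factor list that were at least 2-fold higher in vHPC (right, blue) or in VS (left, red) at an edgeR FDR below 0.1, with the number tested in brackets. Peptide receptors gave 17 members in VS and 9 in vHPC, while secreted growth factors gave 8 in vHPC and 3 in VS.

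Whether the region difference depended on the number of saline injections was tested with an interaction term. No gene passed at an FDR below 0.1 with edgeR, while 1869 of 20978 had an unadjusted p under 0.05 and DESeq2 called 128 genes. Leaving out the acute vHPC library of mouse 6 gave 130 calls with edgeR, 1 call came without the acute VS library of mouse 2 or the chronic VS library of mouse 6, and none without any other. The count of 0 does not show that there was no such difference. *Bdnf*, for example, had log2 fold changes of 1.35 in acute and 3.69 in chronic mice fitted alone, and *Cartpt* -4.37 and -3.47.

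The same regions of ethanol-treated mice gave a second set of 12 libraries that shared none with the first. These mice had received 2 g/kg ethanol in each of 1 (acute) or 10 (chronic) injections, the last 4 h before tissue was taken. There, 43.5% of 21178 genes passed edgeR's test, 21.7% towards vHPC and 21.8% towards VS, and 13.9% were at least 2-fold apart, 7.25% and 6.69%. Of the 241 members at least 2-fold apart in saline mice and tested in ethanol mice, 239 had the same sign, 221 passed the test with it and 206 were at least 2-fold apart again. Over the 742 members tested in both, the log2 fold changes had a Pearson correlation of 0.881, given as a description across genes, which are not independent. *Drd1* had log2 fold changes of -4.46 and -3.32 in saline and ethanol mice, *Adra1d* 5.29 and 5.94, *Penk* -4.23 and -3.47, and *Kcng2* 3.20 and 3.00. *Lhx9*, the member with the largest fold change in saline mice, had 7.48 and 4.07. In ethanol mice it reached 4.54 CPM in VS, against 8.34 to 20.7 CPM in vHPC. The summed level of striatal projection neuron markers, a list that holds *Drd1* and *Penk*, was 1865 CPM in the acute ethanol vHPC library of mouse 4 and 2185 CPM in the chronic one of mouse 5, against 500.2 to 731 CPM in the other 4. The part of these libraries in the smaller differences of *Drd1* and *Penk* was not tested.

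The region difference itself differed between saline and ethanol mice for 65 of 21797 genes (0.298%) by edgeR's interaction test, 61 of them with a log2 fold change of vHPC over VS shifted towards vHPC in ethanol mice, and 204 genes with mouse as a replicate block. The count rested on single libraries, as it was 251 without the chronic saline VS library of mouse 5 and 30 without the acute saline VS library of mouse 6 or the chronic one of mouse 3. It was 102 without the acute saline VS library of mouse 2, and 36 to 43 without the acute saline vHPC library of mouse 2 or any 1 of 4 ethanol libraries, the acute vHPC and VS libraries of mouse 3 and the chronic VS libraries of mouse 1 and mouse 6. Of the members, 17 were among the 65, all in that direction, with log2 differences of 0.722 to 3.76, and 4 of them also stood in the marker lists of pallial or dentate neurons. *Neurod2* ran from 3.69 to 32.5 CPM in VS of saline mice and from 0.265 to 2.83 CPM in VS of ethanol mice, against 109.7 to 189 and 111 to 201 CPM in vHPC (log2 difference 3.76, standard error 0.55, edgeR FDR 0.00772). *Nr4a2* ran from 3.41 to 70.9 CPM in saline VS and 1.59 to 8.04 CPM in ethanol VS, and *Tbr1* from 6.82 to 54.3 and 1.06 to 10.2 CPM. Their vHPC ranges overlapped between treatments. *Cck*, *Bdnf*, *C1ql3*, *Emx1*, *Neurod6* and *Kcnj6* were among the other members, with log2 differences from 1.65 to 3.05. The list of pallial excitatory markers holds *Neurod2*, *Neurod6*, *Emx1* and *Tbr1* themselves, so it is not separate from these members. Of its genes, 5 of 9 were called by the same test. Their sum in VS ran from 68.5 to 808 CPM in saline mice and from 28.7 to 134 CPM in ethanol mice. The part of cortical tissue in the VS cores in these differences was not tested.

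**Figure D5:**
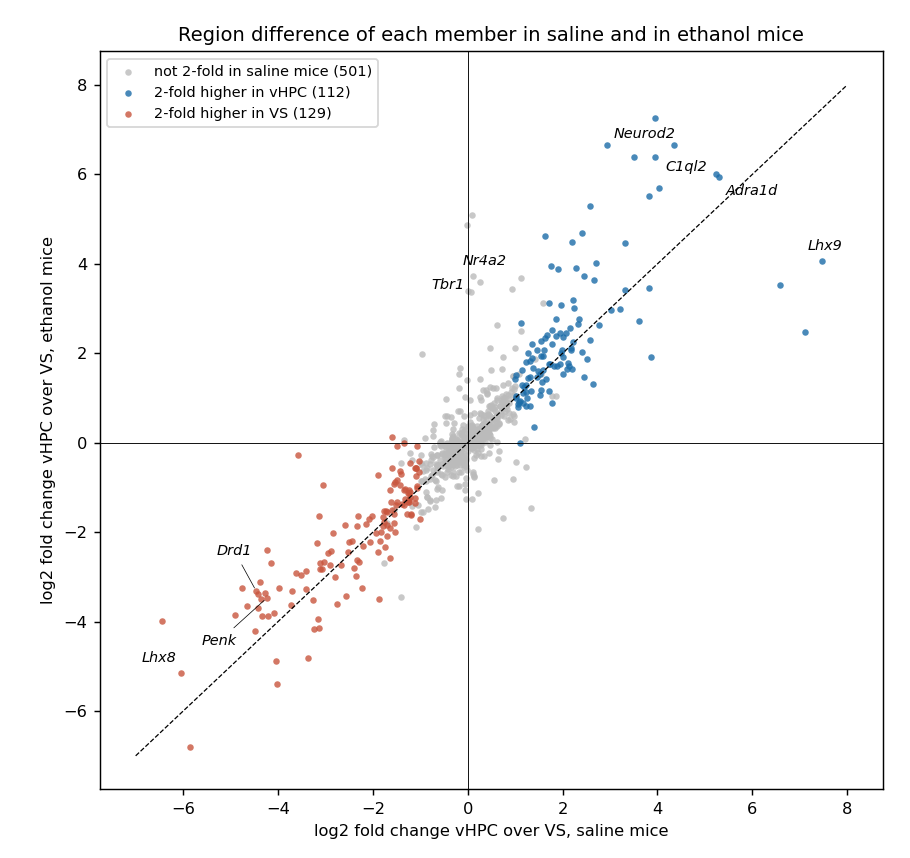
Log2 fold change of vHPC over VS for each member tested in both sets, in saline mice (x axis) and ethanol mice (y axis), coloured by the call in saline mice, with the line of equality dashed. Most of the 241 coloured points keep their sign, and *Neurod2*, *Nr4a2* and *Tbr1* lie well above the line.

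The dorsal striatum of the same saline mice, prepared with the same kit and in the same batch, was set beside the 2 regions in 5 libraries, leaving out the chronic one of mouse 2, which had no count on 4 chromosomes. Of the 129 members at least 2-fold higher in VS, 50 had a higher mean in dorsal striatum than in VS, 75 lay between VS and vHPC, and 4 were below both. *Rxrg* averaged 127 ± 31.4 CPM in dorsal striatum (SD, n = 5) against 61.6 CPM in VS, and *Drd1* 239 ± 38.6 against 178 CPM. *Cartpt* had 2.41 ± 1.33 CPM there against 22.8 CPM in VS, *Drd3* 0.823 ± 0.661 against 3.66 CPM, and *Pdyn* 58.3 ± 16.8 against 133 CPM. These levels are given side by side and were not tested. Of the 113 members higher in vHPC, none had its highest mean in dorsal striatum, 75 lay between VS and vHPC and 38 below both.

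Beyond the 4 classes, the naming rule gave *Cldn22*, a tight junction gene, with 6.12 to 10.95 CPM in vHPC and no count in VS, at least 34.1-fold higher by the floor of 3 counts per library, and the uncharacterised *Gm26644* (9.70 to 19.8 CPM (median 13.1) in vHPC and 0 to 0.568 CPM (median 0) in VS). Towards VS it gave *Gbx1*, a homeobox gene outside the lists (0 to 0.17 CPM (median 0.0722) in vHPC and 1.54 to 23.2 CPM (median 2.43) in VS), whose maximum was in the chronic VS library of mouse 5, like that of *Lhx8*.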

How the data were processed

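The authors deposited 1 table of raw counts per gene for all libraries. Per their methods, reads were trimmed with cutadapt 5.0, aligned to GRCm39 with STAR 2.7.10a and counted on exons with featureCounts 2.0.6, stranded. A read pair with several alignments, or over several genes, added to the count of each, so that overlapping or near-identical genes could share counts.

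Of these, the 12 saline libraries of vHPC and VS entered, with 10142093 to 16443179 counts. A gene was kept where 2 or more libraries of a group had 5 counts or more. Counts were scaled by TMM and tested with the quasi-likelihood F test of edgeR 4.0.16 with paradigm as a covariate, with Benjamini-Hochberg adjustment over all 20978 genes. Interaction terms of region with paradigm and of region with treatment were tested in the same way, and the test was run on simulated counts. Alternatives were DESeq2 1.42.0, limma 3.58.1 voom, other scalings and filters, each library left out, and mouse as a replicate block. The library names end in a number, which the labels do not explain. The same number within a treatment and paradigm was taken as the same mouse, which paired the libraries of 5 mice. The deviations of same-mouse libraries from their group means correlated at -0.0884 to 0.177 over 12506 genes.

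The members and lists were chosen with earlier results of these data known. Genes were named as the 4 with the largest fold change towards each region in each class, and the first towards each region in each list, among those at an FDR below 0.1 with a mean of at least 5 CPM in the higher region and no overlap of libraries, together with the 3 of each class with the highest CPM per kilobase of exon, the members with the largest interaction terms (at most 3) and the 3 largest changes of all genes in each direction. Other members were added as relatives of these after their values were seen. Some genes that the rule named are not reported here. Levels are TMM-scaled CPM. Where no library of a region exceeded 3 counts, a bound was computed with 3 counts in each. Promoter windows came from RefSeq, build GRCm38.p6. By the numbers in the library names the 7 mice are separate animals, but 5 gave a library to each region, and the main test treats libraries as independent. The depth limits genes of low count, and intervals were not computed for single libraries.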

Additional observations from a re-analysis of the deposited data

Results flagged for a closer look

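In 19 of 222 groups of 6 libraries looked at, 1 library lay far from the other 5, by the gap to its nearest neighbour as a share of the whole range (Dixon's ratio). The nominal share by chance is about 5% of groups, for independent and normally distributed values. It was not computed for these data, whose groups share libraries. Most of these libraries were the 3 already named as standing apart in marker genes. No cause was tested.

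The acute vHPC library of mouse 2 was the highest of 6 in *Shox2*, at 46.7 CPM (gap 0.797 of the range), in *Isl1*, at 3.84 CPM (gap 0.86 of the range), in *Six3*, at 33.9 CPM (gap 0.698 of the range), and in *Grm4*, at 40.1 CPM (gap 0.645 of the range). It was also the highest in thalamic and habenular markers, at 673 CPM (gap 0.821 of the range), and in choroid plexus markers, at 2454 CPM (gap 0.81 of the range). The acute vHPC library of mouse 4 was the highest in *Oprk1*, at 7.01 CPM (gap 0.644 of the range), and in *Pbx3*, at 12.3 CPM (gap 0.679 of the range).

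The chronic VS library of mouse 5 was the highest of its region in *Lhx8*, at 30.8 CPM (gap 0.733 of the range), in *Nkx2-1*, at 13.7 CPM (gap 0.76 of the range), in cholinergic neuron markers, at 64.2 CPM (gap 0.629 of the range), in *Npy2r*, at 28.9 CPM (gap 0.646 of the range), and in *C1ql2*, at 4.97 CPM (gap 0.852 of the range). It was the lowest in *Chrna7*, at 6.96 CPM (gap 0.773 of the range), and in *Jund*, at 82.8 CPM (gap 0.696 of the range). The acute VS library of mouse 6 was the highest in *Bdnf*, at 25.1 CPM (gap 0.705 of the range). The acute VS library of mouse 2 was the highest in *Pbx3*, at 71.3 CPM (gap 0.731 of the range), and the lowest in *Nfe2l1*, at 269.5 CPM (gap 0.762 of the range). The chronic VS library of mouse 6 was the highest in choroid plexus markers, at 2955 CPM (gap 0.929 of the range).

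The region difference itself differed between saline and ethanol mice by edgeR's interaction test, with log2 differences of 3.76 for *Neurod2*, 3.65 for *Nr4a2* and 3.31 for *Tbr1*. Pallial marker RNA in the VS libraries, a sum that itself includes *Neurod2* and *Tbr1*, moved with these 3 genes, and its part was not tested.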

How the results depend on the processing

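The region difference in saline mice stood at 8194 genes and gave 7260 to 8146 with 1 library left out. It was 5457 in acute mice alone and 5398 in chronic mice alone, fits of 6 libraries each. Of the genes at least 2-fold apart, 2508 in all, 2281 to 2560 were called with 1 library left out, 1131 with at least 10 counts in every library, a filter that leaves fewer genes, 1005 with glmTreat of edgeR against a log2 fold change of 1, and 939 past a log2 fold change of 2. With glmTreat, 159 members in place of 242 were called. Those higher in vHPC were 26 receptors, 12 channels, 9 peptides and 33 transcription factors. Those higher in VS were 35 receptors, 16 channels, 6 peptides and 22 transcription factors. The ethanol mice gave 8518 to 9131 genes with 1 library left out and 5878 in acute mice alone. The interaction of region and paradigm, with no call, gave 128 with DESeq2, 705 with no low-count filter and 0 to 130 with 1 library left out. The interaction of region and treatment, 65 genes, gave 173 with DESeq2, 463 with no low-count filter, 36 with at least 10 counts in every library and 30 to 251 with 1 library left out. The cause of the changes in the interaction counts was not tested.

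With mouse as a replicate block, the region and treatment interaction rose to 204 genes. The block changed no other call by over 1.5 times, with 7353 genes in saline mice, 7223 in ethanol mice and 0 for the paradigm interaction. Alternatives chosen after seeing the data left out the 2 libraries with most choroid plexus RNA (7878 genes, 247 members at least 2-fold apart) or the 2 that stood apart in neuron markers (7433 genes, 251 members). No result reversed. Among the named genes *Six3*, *Gabbr1*, *Nfe2l1*, *Hcn3* and *Ets2* lost their call in some alternative, in which fewer libraries entered except for *Nfe2l1*. Genes of a few counts, such as *Calcr* or *Gata3*, are limited by depth.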

Other observations

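The transcription factor lists also held 14 activity-regulated factors, genes that neurons switch on within minutes to hours of firing. They were put together after their values were seen and stand here as a description. Of 13 tested, 6 were at least 2-fold higher in VS and 2 in vHPC by edgeR, and 9 passed the test towards VS with no size criterion. Of all genes, 6.61% were at least 2-fold higher in VS and 5.35% in vHPC, and 20.2% passed towards VS with no size criterion. *Npas4* ran from 7.79 to 18.5 CPM (median 13.2) in vHPC and 6.96 to 44.3 CPM (median 38.5) in VS (log2 fold change -1.41), *Egr1* from 73.0 to 132 CPM (median 106) in vHPC and 97.3 to 369.8 CPM (median 236) in VS (-1.11) and *Fos* from 4.68 to 24.8 CPM (median 15.9) in vHPC and 2.84 to 54.6 CPM (median 34.2) in VS (-1.06). The ranges of all 3 overlapped, with the chronic VS library of mouse 5 the lowest of VS in each, and *Fos* passed the test in 7 of 12 fits that left out 1 library each. *Egr2* (-1.90), *Fosb* (-1.09) and *Nr4a1* (-1.03) were the other factors at least 2-fold higher in VS.

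*Jun* and *Nr4a3* went the other way without overlap, *Jun* from 79.9 to 116 CPM (median 106) in vHPC and 22.3 to 50.02 CPM (median 33.9) in VS (1.55) and *Nr4a3* from 86.4 to 128 CPM (median 102) in vHPC and 6.82 to 75.5 CPM (median 21.8) in VS (2.13). In ethanol mice the log2 fold changes were 1.95 for *Jun* and 1.72 for *Nr4a3*, both past edgeR's test, and -0.69 for *Npas4*, -0.56 for *Egr1* and -0.07 for *Fos*. Of the 9 factors that passed towards VS in saline mice, *Egr1* alone passed in ethanol mice. The interaction term of region and treatment was called for none of *Jun*, *Nr4a3*, *Npas4*, *Egr1* and *Fos* at an FDR below 0.1. It was called for *Nr4a2*, another of the 14 factors (log2 difference 3.65).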
